A study of Drosophila melanogaster with 8 samples.

Results

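The response of Stat92E mutant cells to the cytokine upd was measured in 4 of the 8 libraries of the series, 2 with upd and 2 with control media, set against each other in pairs of equal replicate number. The mutant cells are an S2R+ line whose Stat92E gene was knocked out with CRISPR. They were given upd for 1 hour or control media for 1 hour. The other 4 libraries hold wild-type S2R+ cells, not edited, with upd and with control media for the same time, again 2 libraries in each group. S2R+ is a macrophage-like line derived from Drosophila melanogaster embryos. The labels do not say whether the edited line is 1 clone, where in the gene the edit lies, how upd was prepared or whether replicates are separate cultures. The p-values therefore rest on library-to-library spread that may be technical. Polyadenylated RNA was sequenced, and each gene's deposited read count was used. Of 13932 genes in the tables, 8126 had enough counts to be tested, and all of them are covered here.

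Upd (Unpaired) is a secreted ligand of the receptor Domeless. The receptor's kinase, Hopscotch, phosphorylates the transcription factor STAT92E, which then enters the nucleus and binds its target genes, among them the feedback inhibitor Socs36E. In blood cells the pathway is known for its part in immune and stress responses. The comparison in the edited line asks which transcripts still move when upd is added.

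Library totals were 21600752 and 22948539 counts in mutant cells with upd and 20132421 and 15146225 counts in mutant cells in control media. The wild-type libraries were uneven, with 9142736 and 30352948 counts with upd and 8285533 and 28465332 counts in control media, where the lower total of each group is replicate 1. The first mutant upd library stood apart from the other mutant libraries. Nuclear genes under 1000 bases took 20.5% and 18.2% of the counts in the mutant upd libraries (replicates 1 and 2) and 17.2% and 17.3% in the mutant control libraries. Mitochondrially encoded transcripts made up 19.1% and 17.0% of all counts with upd, against 15.0% and 15.1% in control media of the mutant line. In wild-type cells this share was 22.07% and 12.84% with upd and 20.22% and 13.95% in control media (replicates 1 and 2). There it differed more between replicates of the same medium than it did between the media in either line. What part such spread has in the mutant difference was not tested. Calls that were lost without the first mutant upd library are named as such below. With the pairing, leaving out either library of replicate 1 leaves the pair of replicate 2 as the comparison.

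Stat92E itself (FBgn0016917, 3R:20535323-20552311 on dm6) was at 111 and 121 CPM with upd (CPM is the count scaled to the normalised library size) and at 103 and 114 CPM in control media of the mutant line. The groups overlapped. The difference, 0.10 ± 0.09 on the log2 scale (SE, 2 pairs), did not pass edgeR's quasi-likelihood test with Benjamini-Hochberg adjustment (adjusted p 0.574). A transcript level does not measure the protein, and the position of the edit is not known, so this level does not check the knockout. Of the macrophage marker genes, the mutant line held the scavenger receptor gene crq at 172 and 221 CPM with upd and 206 and 223 CPM in control media, and Pxn, a peroxidase of the extracellular matrix, at 216 and 183 CPM with upd and 229 and 198 CPM in control media. These were the highest levels of the list. NimC1, gcm and gcm2 had 0 counts in all 4 mutant libraries, and with them 7 of the 17 markers stayed under 1 CPM in each. Hml was at 0.706 and 0.385 CPM with upd and 1.29 and 0.610 CPM in control media. The summed level of the 17 macrophage markers was 515 and 579 CPM with upd and 567 and 593 CPM in control media of the mutant line. In wild-type cells this sum was higher, 1206 and 1597 CPM with upd and 1074 and 1500 CPM in control media. Both sums include the collagen gene Col4a1. In the mutant line 0 of the 12 tested markers passed. Collagen was nearly absent from the mutant line, with Col4a1 at 0.806 and 0.642 CPM with upd and 1.34 and 0.732 CPM in control media, against 396 and 601 CPM with upd and 376 and 583 CPM in control media of wild-type cells. The receptor gene fz, by which S2R+ cells are told from other S2 cells, was at 1.36 and 6.25 CPM with upd and 1.91 and 5.43 CPM in control media of the mutant line, against 8.96 and 9.93 CPM with upd and 13.7 and 10.3 CPM in control media of wild-type cells. It differed more between the replicates of the mutant line than between its media.

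With the libraries paired by number, an hour of upd was followed by changes of modest size in many mutant transcripts. With the replicate number as a block, edgeR's quasi-likelihood test called 5.75% of the 8126 genes at an adjusted p of 0.05: 313 rose (3.85%) and 154 fell (1.9%). Among the rises were the growth regulator Myc, the TOR inhibitors scyl and chrb, the insulin antagonist ImpL2, the kinase gene fray, and many genes of ribosomes and of the respiratory chain. The median log2 difference was 0.50 among the rises and -0.45 among the falls, and 21 rises and 3 falls were larger than 2-fold. Over all tested genes it was 0.00. All calls had the same sign in both pairs, which the test largely fixes. In 280 of the 313 rises and 138 of the 154 falls the difference was larger in the pair of replicate 1. In 270 of the rises both upd libraries lay above both control libraries, and in 134 of the falls both lay below. Such separation held for 18% of all tested genes upward and 19% downward.

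The calls depend on the pairing and on single libraries. Without the replicate block 0 genes passed, and 266 of 8126 had an unadjusted p under 0.05. That is fewer than this threshold gives when no gene differs, so the unblocked fit shows no sign of a response. DESeq2 with the block called 157 rises and 52 falls. Without the first mutant upd library, 47 genes rose and 14 fell, and without the first mutant control library 43 rose and 14 fell. Without the second mutant upd library the counts were 782 and 626, and without the second mutant control library 749 and 607. Of these calls, 29 rises and 3 falls held in each of 13 other fits with the block in which they were tested. Those fits changed the tool, the scaling or the filter, or used the mutant libraries alone. Others left out a mutant library or the mitochondrial transcripts, or took out a trend with gene length. Each fit without a mutant library compares 1 upd library with 1 control library. It takes its spread from the wild-type libraries and from other genes, so its counts are not replicated calls. Leaving out either library of a pair gives the same comparison, so such fits are not separate checks. The 29 rises are Myc, chrb, scyl, ImpL2, fray, cwo, chn, CrebA, sty, SCaMC, RasGAP1, tai, Pdp1, ksr, Bcat, Rap2l, CG12290, CG43689, CG6770, SNRPG, RNASEK, RpS29, RpL36A, RpL39, RpL35A, UQCR-6.4, mt:CoIII, mt:ND4L and mt:ND6, of which the mitochondrial ones were not in the fit without mitochondrial transcripts. The 3 falls are l(1)G0196, Nup358 and Ts. Every other call of the mutant line named below was lost in at least 1 of the 13 fits, which is not always stated there. In a bulk library a change in every cell and a change in a share of the cells cannot be told apart.

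**Figure D1:**
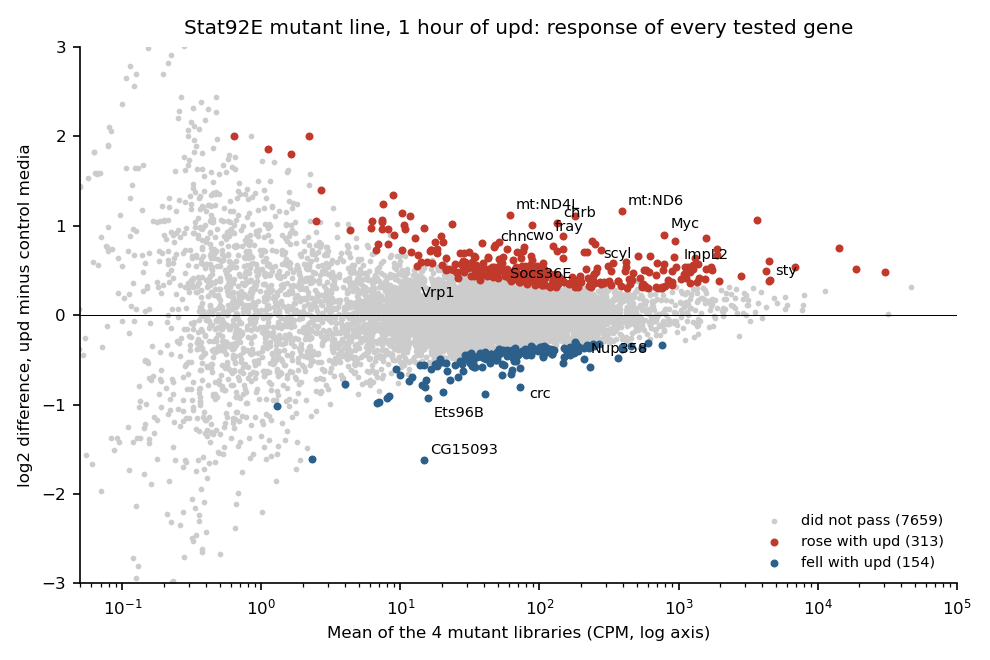
Log2 difference between upd and control media in the mutant line (vertical axis) against the mean level of the 4 mutant libraries in CPM (horizontal log axis), 1 point per tested gene. Red points are the 313 genes that rose and blue points the 154 that fell with the replicate block. Most calls lie within 2-fold at middle and high levels, and 83 genes lie outside the axes.

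Myc rose with upd. Myc (FBgn0262656, X:3373159-3391697, plus strand), the transcription factor that drives cell growth, was at 1185 and 868 CPM with upd and at 577 and 512 CPM in control media. Both upd libraries lay above both control libraries. The log2 difference was 0.90 ± 0.10 (edgeR adjusted p 3.02e-05), with 1.04 and 0.76 in the pairs of replicates 1 and 2. Exons of Myc overlap those of lncRNA:CR44999 and CG12535, and because the counter and its strand setting are not given, reads of overlapping genes cannot be told apart. Mnt, which encodes the repressor that competes with Myc for its partner Max, was at 32.2 and 18.6 CPM with upd and 15.2 and 11.7 CPM in control media, without overlap. It rose by 0.89 ± 0.16 (edgeR adjusted p 0.00277). The call for Mnt was lost without the first upd or the first control library (0.67 in the remaining pair).

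Of the 26 tested genes of the list of Myc partners and ribosome biogenesis factors, 6 rose and 0 fell, which is 23.1% against 3.85% of all tested genes, with a median of 0.18. The other risers were Fib, the nucleolar RNA methyltransferase (0.49), NHP2, a protein of the particles that pseudouridylate ribosomal RNA (0.79), Tif-IA, an initiation factor of RNA polymerase I (0.41), and eIF6, a factor bound to the large subunit before it is used (0.42). NHP2 was at 78.4 and 45.0 CPM with upd and 34.5 and 34.6 CPM in control media, and Fib at 120.1 and 80.7 CPM with upd and 70.4 and 70.0 CPM in control media. For both genes the first upd library was the highest. Without the first upd library only Myc still passed in this list, and the median was 0.13. The first control library had the same effect on the count, and without either library of replicate 2 the counts were 9 rises and 1 fall.

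The insulin, TOR and FOXO list held 7 rises and 1 fall among 28 tested genes, which is 25.0% and 3.57% against 3.85% and 1.9% of all tested genes. Insulin signalling runs through the kinases Pdk1 and Akt to TOR and S6k, which promote growth, and holds the transcription factor FOXO out of the nucleus. The paralogues scyl and chrb encode fly counterparts of REDD1, which inhibit TOR. The gene scyl (3L:11252307-11256172) was at 368 and 267 CPM with upd and 189 and 171 CPM in control media, and chrb (3L:11487550-11499055) at 202 and 156 CPM with upd and 80.2 and 94.5 CPM in control media. Neither overlapped between the media. The log2 differences were 0.80 ± 0.09 for scyl and 1.03 ± 0.12 for chrb (edgeR adjusted p 4.39e-05 and 4.32e-05). In the pairs of replicates 1 and 2 they were 0.96 and 0.64 for scyl and 1.33 and 0.72 for chrb.

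ImpL2 (3L:4224006-4236147, minus strand), a secreted protein that binds insulin-like peptides and keeps them from the receptor, was at 1373 and 1045 CPM with upd and 657 and 687 CPM in control media. Its groups were apart, and the difference was 0.83 ± 0.10 (edgeR adjusted p 4.5e-05; 1.06 and 0.60 in the pairs). An exon of CG46460 overlaps ImpL2 on the same strand. The transcription factor gene foxo was weakly expressed, at 14.6 and 15.2 CPM with upd and 8.13 and 10.1 CPM in control media, and rose by 0.71 ± 0.19 (edgeR adjusted p 0.0262). Sesn, which encodes the TOR inhibitor Sestrin, was at 80.2 and 72.7 CPM with upd and 59.4 and 54.9 CPM in control media and rose by 0.42 ± 0.11 (edgeR adjusted p 0.0281).

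Of the kinases of the pathway, Pdk1 rose by 0.45 ± 0.10 and S6k by 0.30 ± 0.09 (edgeR adjusted p 0.00971 and 0.0464). Tsc1, a subunit of the complex that inhibits the TOR activator Rheb, was at 43.2 and 41.3 CPM with upd and 58.9 and 53.2 CPM in control media, and its difference was -0.41 ± 0.12 (edgeR adjusted p 0.0396). The other 20 genes of the list did not pass, and the median over all 28 was 0.11. Without the first upd or the first control library only scyl, chrb and ImpL2 passed in this list.

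The kinase gene fray (3R:18573091-18589459) stood out for its difference from wild-type cells. It encodes the counterpart of the mammalian kinases SPAK and OSR1, which are activated by WNK kinases and control ion cotransporters. It was at 354 and 258 CPM with upd and 169 and 172 CPM in control media of the mutant line, without overlap, and at 330.5 and 244 CPM with upd and 359.6 and 306 CPM in control media of wild-type cells. The difference was 0.83 ± 0.10 in the mutant line (edgeR adjusted p 4.7e-05; 1.06 and 0.59 in the pairs) and -0.23 ± 0.10 in wild-type cells (edgeR adjusted p 0.48). The 2 responses differed by 1.05 ± 0.15 (interaction term of the same test, adjusted p 0.000749). Exons of CG7694 overlap fray on the same strand. The other 4 genes of the small WNK list (Wnk, Ncc69, Mo25 and kcc) did not pass.

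Several regulators of transcription were among those 29 rises. The zinc finger gene chn was at 69.1 and 50.3 CPM with upd and 40.1 and 30.1 CPM in control media, and the clock repressor gene cwo at 195 and 172 CPM with upd and 105 and 114 CPM in control media. Both were apart between the media and rose by 0.76 ± 0.11 (chn) and 0.74 ± 0.10 (cwo), with edgeR adjusted p 0.000487 and 6.07e-05. Pdp1, a bZIP activator that also works in the clock, rose by 0.46 ± 0.09. CrebA, the bZIP regulator of the secretory pathway, was at 53.7 and 70.7 CPM with upd and 31.7 and 50.1 CPM in control media, and rose by 0.63 ± 0.11 (edgeR adjusted p 0.00213). Its upd libraries both lay above its control libraries, narrowly for replicate 1. The ecdysone receptor coactivator gene tai rose by 0.43 ± 0.09.

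Among regulators of Ras and ERK, the receptor tyrosine kinase inhibitor gene sty was at 5255 and 4823 CPM with upd and 4141 and 3599 CPM in control media and rose by 0.38 ± 0.10 (edgeR adjusted p 0.0253). The scaffold gene ksr was at 42.2 and 41.2 CPM with upd and 27.2 and 26.1 CPM in control media and rose by 0.65 ± 0.13 (edgeR adjusted p 0.00436). It had almost equal values within each medium. RasGAP1, which turns Ras off, was at 171 and 111 CPM with upd and 137 and 79.2 CPM in control media. Here the groups overlapped, and the rise of 0.41 ± 0.09 rests on the pairing. SCaMC, a carrier of the inner mitochondrial membrane, overlapped in the same way, at 603 and 402 CPM with upd and 423 and 251 CPM in control media, and rose by 0.60 ± 0.09. The ERK list, which does not hold ksr or RasGAP1, had 2 rises (sty, CrebA) and 1 fall (crc) among 17 tested genes. That is 11.8% and 5.88%, against 3.85% and 1.9% of all tested genes, and the median was 0.23.

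**Figure D2:**
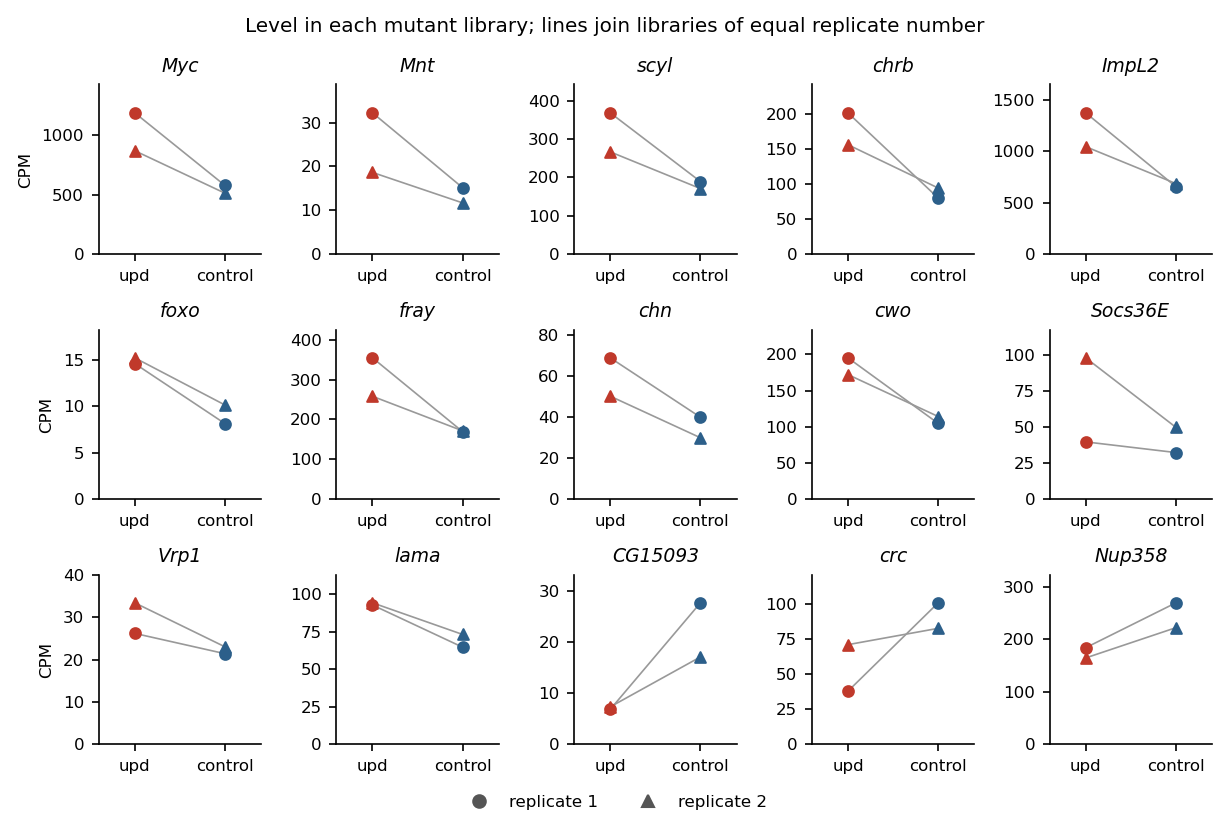
Level in CPM (vertical axes from 0) of 15 genes in the 4 mutant libraries, upd on the left (red) and control media on the right (blue). Circles are replicate 1, triangles replicate 2, and grey lines join libraries of equal number. Every line falls from upd to control for the first 12 genes and climbs for CG15093, crc and Nup358, and for Socs36E the replicate 1 upd library lies below the replicate 2 control library.

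Transcripts of mitochondria and ribosomes shifted upward together, more in the pair of replicate 1. Of the 13 protein-coding transcripts of the mitochondrial genome, 11 rose and 0 fell (84.6%, against 3.85% of all tested genes). Their median difference was 0.61, with 0.83 in the pair of replicate 1 and 0.43 in that of replicate 2. As given above, the share of these transcripts also differed widely between wild-type libraries of the same medium. The complex I subunit mt:ND6 was at 585 and 486 CPM with upd and 187 and 303 CPM in control media (difference 1.16 ± 0.15), and mt:ND3 at 5323 and 4526 CPM with upd and 1981 and 2777 CPM in control media (1.07 ± 0.13). Both were apart between the media. DESeq2 did not call mt:ND3. The 2 that did not pass the edgeR test, mt:CoI and mt:CoII, differed by 0.32 and 0.02. Without the first upd library 8 of the 13 rose, and without the first control library 7.

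Cytosolic ribosomal protein genes rose in 40 of 89 cases (44.9%, against 3.85% of all tested genes) and 0 fell. A difference above 0 was found for 87 of them, and for 4006 of all 8126 tested genes. The median of the 89 was 0.33, with 0.49 in the pair of replicate 1 and 0.17 in that of replicate 2. RpL35A (3R:5465630-5467101) was at 325 and 178 CPM with upd and 111 and 112 CPM in control media, and rose by 1.11 ± 0.13 (edgeR adjusted p 4.39e-05). RpL39 was at 2726 and 1381 CPM with upd and 1189.9 and 964 CPM in control media (0.86 ± 0.12). Its exons overlap RpL12 on the other strand. RpL36A was at 310.2 and 238 CPM with upd and 165 and 167 CPM in control media (0.71 ± 0.10). In each of these 3 genes both upd libraries lay above the controls, the first by more. Without the first upd or the first control library 4 of the 89 rose, without the second upd library 63 and without the second control library 60.

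Nuclear genes of the respiratory chain and ATP synthase gave 22 rises and 1 fall (ND-18, -0.30) among 67, with a median of 0.27 (0.44 and 0.10 in the pairs). That is 32.8% risen and 1.49% fallen, against 3.85% and 1.9% of all tested genes. UQCR-6.4, a small subunit of complex III, was at 39.2 and 23.7 CPM with upd and 16.5 and 13.9 CPM in control media and rose by 1.02 ± 0.15 (edgeR adjusted p 0.000266). Without the first upd library 2 of the 67 rose, without the first control library 1, and without either library of replicate 2 the count was 38. The accessory subunit genes UQCR-Q and ND-MLRQ rose by 0.77 ± 0.13 and 0.71 ± 0.12, and Cyt-c-p, which encodes cytochrome c, by 0.53 ± 0.09. The calls for UQCR-Q and ND-MLRQ were lost without the first upd or the first control library, and that for Cyt-c-p without the first control library. Proteins of the mitochondrial ribosome had 4 rises (5.63%, against 3.85% of all tested genes) and 0 falls among 71. Their median was 0.15 (0.19 and 0.07 in the pairs), and DESeq2 called 0 of them. For cytosolic translation factors the counts were 3 rises (6.25%) and 1 fall (2.08%, against 1.9% of all tested genes) among 48. Proteasome subunits had 0 calls among 34.

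**Figure D3:**
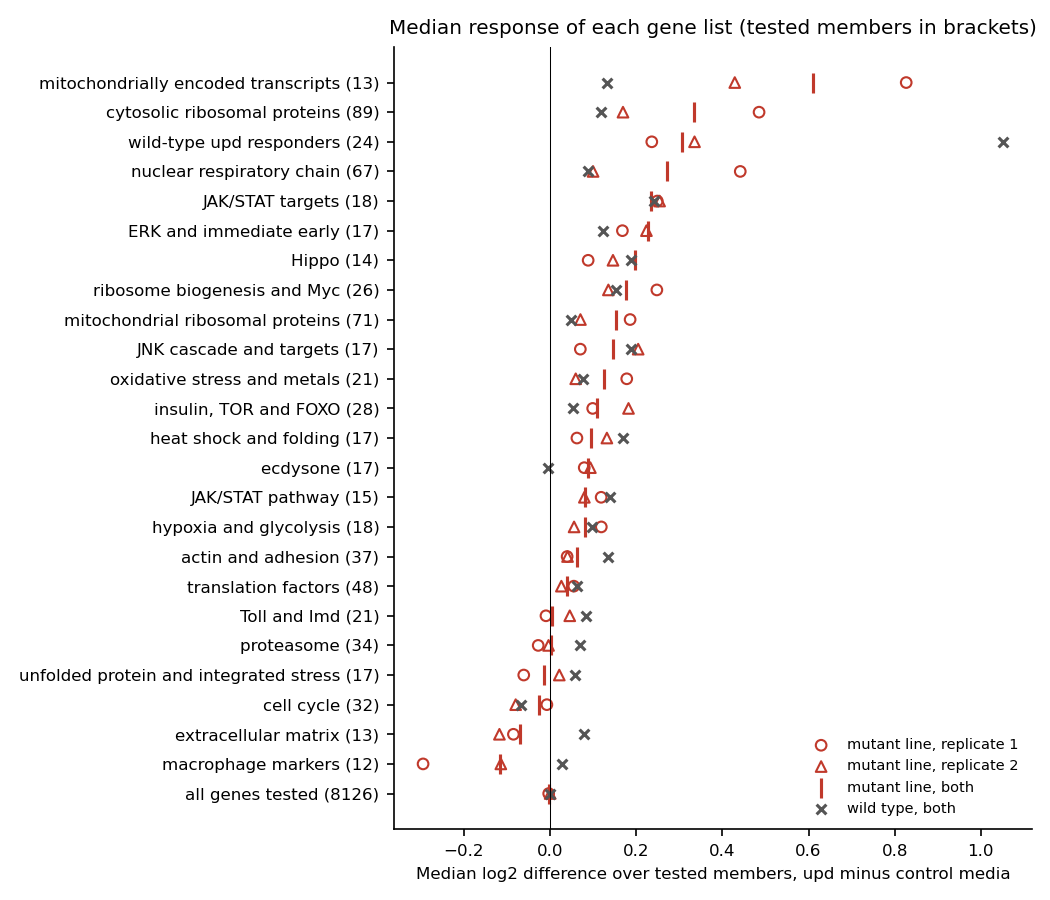
Median log2 difference (upd minus control media) over the tested members of each gene list with at least 10 tested members, and of all tested genes at the bottom. Circles and triangles are the mutant pairs of replicates 1 and 2, bars the mutant fit and grey crosses wild-type cells. The mitochondrial, ribosomal protein and respiratory chain lists lie furthest above 0 in the pair of replicate 1.

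Gene length moved with these lists. The median length of the cytosolic ribosomal protein genes was 877 bases and that of the mitochondrial transcripts 789 bases, against 2043 bases over all tested genes. Genes under 500 bases (145 genes) had a median difference of 0.36 with upd, 0.54 in the pair of replicate 1 and 0.10 in that of replicate 2. In the next class, from 500 to under 1000 bases (1074 genes), the median was 0.17, and from 1000 to under 2000 bases (2735 genes) it was -0.02. In these 3 classes 20.7%, 9.22% and 2.38% of genes rose. Of the 313 rises 41.2% were shorter than 1000 bases, of the 154 falls 2.60%, and of all tested genes 15.0%.

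Within 2 length classes the median of the ribosomal protein genes, in the fit over both pairs, was higher than that of the other genes. From 500 to under 1000 bases their median was 0.35 (53 genes), against 0.15 for genes outside the list (1016 genes), and from 1000 to under 2000 bases it was 0.31 (31 genes), against -0.02 (2699 genes). After a trend with length was taken out of each library, 32 of the 89 ribosomal protein genes rose with a median of 0.20, 10 of the 13 mitochondrial transcripts with a median of 0.50, and 13 of the 67 respiratory chain genes with a median of 0.16. The median of the mitochondrial ribosomal proteins was then 0.00. Myc counts 9166 bases and chrb 5845, and their differences after that step were 0.85 (Myc) and 1.02 (chrb). Among all genes, 230 of the 313 rises and 129 of the 154 falls were also called after that step. What part the composition of the first upd library has in the rise of short transcripts was not tested. Nor was gene length tested as a cause of the shift of the ribosomal protein genes.

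**Figure D4:**
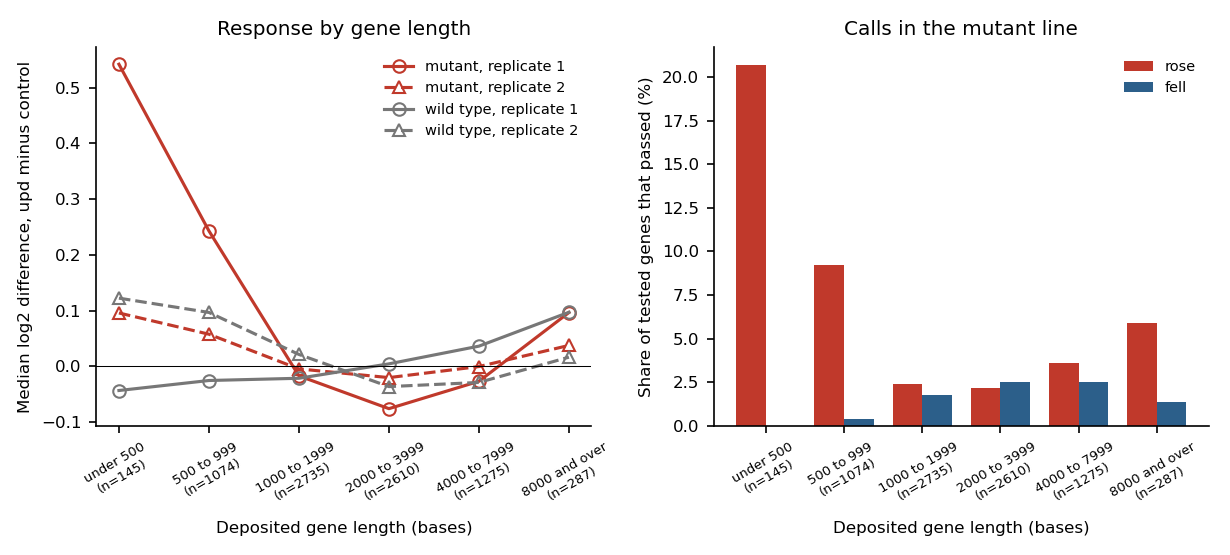
Left, median log2 difference (upd minus control media) by class of deposited gene length in bases, for the mutant pairs (red) and the wild-type pairs (grey), circles for replicate 1 and triangles for replicate 2. Right, share of tested genes in each class that rose (red) or fell (blue) in the mutant line, in percent. The mutant pair of replicate 1 rises steeply below 1000 bases, and 20.7% of the shortest class rose.

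Of 15 tested genes of the JAK/STAT pathway, 2 rose in the mutant line (Socs36E and Socs16D), 0 fell and 13 did not pass. That is 13.3% against 3.85% of all tested genes, and the median was 0.08. Without any 1 of the mutant libraries 1 of the 2 still passed. The receptor gene dome was at 62.1 and 50.3 CPM with upd and 65.8 and 57.3 CPM in control media, and the kinase gene hop at 12.9 and 13.9 CPM with upd and 14.8 and 18.4 CPM in control media. Neither passed (differences -0.13 and -0.30). The ligand genes upd2 and upd3 were at most at 1.28 and 8.13 CPM and did not pass.

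Socs36E (2L:18138675-18152417), the feedback inhibitor and best known target, was at 39.8 and 98 CPM with upd and 32.4 and 49.9 CPM in control media of the mutant line. The groups overlapped, because replicate 2 was higher than replicate 1 in both media. Paired by number it rose by 0.65 ± 0.14 (edgeR adjusted p 0.0079), 0.30 in the pair of replicate 1 and 0.97 in that of replicate 2. The call was lost without the second upd or the second control library (log2 difference 0.30 and 0.29). Wild-type cells held far more, 927 and 1007 CPM with upd and 287 and 208 CPM in control media, and their response was 1.99 ± 0.13. The mutant response minus the wild-type response was -1.34 ± 0.19 in the interaction test (edgeR adjusted p 0.000749). Both this call and the mutant rise were lost with DESeq2. Socs16D, a relative of Socs36E, was at 239.8 and 153 CPM with upd and 177 and 129 CPM in control media and rose by 0.35 ± 0.09, a call lost without the first upd or the first control library.

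Of 18 tested genes known as STAT targets, 3 rose in the mutant line (Socs36E, Tep2 and lama) and 0 fell, which is 16.7% against 3.85% of all tested genes. Without either library of replicate 1 the count was 2, since lama was lost, and without either of replicate 2 it was 1, since Socs36E and Tep2 were lost. Tep2, which encodes a thioester-containing immune protein, was close to absent, at 1.11 and 5.60 CPM with upd and 0.574 and 2.62 CPM in control media, so that its log2 difference of 1.06 ± 0.25 is a change of a few CPM. The gene lama was at 92.9 and 94.4 CPM with upd and 64.8 and 73.3 CPM in control media, without overlap, and rose by 0.44 ± 0.10 (edgeR adjusted p 0.0146). The stress genes TotA, TotB, TotC, TotM and TotX had too few counts to be tested.

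A list of 24 genes was chosen, with earlier results known, because they respond to upd in the wild-type libraries of these data. All 24 had a difference above 0 in the mutant line, as did 4006 of all 8126 tested genes. The list does not hold every wild-type rise, and of all 99 of those 91 were above 0 in the mutant line. The median of the 24 was 0.31, against 1.05 in wild-type cells, where the choice of the genes favours a large response. Of the 24, 5 rose in the mutant line (Socs36E, Vrp1, lama, pirk and Tep2), which is 20.8% against 3.85% of all tested genes. The calls for Socs36E, Vrp1 and Tep2 were lost without either library of replicate 2. Those for lama and pirk were lost without either of replicate 1. Vrp1 (2R:22106107-22122562), a WASp-interacting regulator of actin, was at 26.2 and 33.4 CPM with upd and 21.4 and 23.0 CPM in control media of the mutant line, and at 233 and 296 CPM with upd and 65.4 and 81.1 CPM in control media of wild-type cells. It was apart between the media in both lines. Its mutant response was 0.42 ± 0.11 (edgeR adjusted p 0.0296) and its wild-type response 1.85 ± 0.10. The difference of the responses was -1.44 ± 0.15 (edgeR adjusted p 2.02e-05). The mutant rise of Vrp1 was lost without the second upd or the second control library (log2 difference 0.29 in both). It was also lost with DESeq2 and in the fit of the mutant libraries alone. Exons of CG30281 and mei-S332 overlap Vrp1 on the other strand. The gene pirk, an inhibitor of the Imd immune pathway, was at 36.9 and 65.2 CPM with upd and 23.2 and 50.1 CPM in control media of the mutant line. It rose by 0.52 ± 0.13 in the paired test, a call lost with DESeq2 and without the first upd or the first control library.

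Genes that rose in both lines included Myc, ImpL2 and scyl. In wild-type cells the same test called 1.37% of genes: 99 rose (1.22%) and 12 fell (0.148%). With no block it called 0, and 148 had an unadjusted p under 0.05, again fewer than this threshold gives when no gene differs. The lines share no library, but both were tested in the same fit with a shared filter and spread, so their calls are not independent. Of the 313 mutant rises 28 also rose in wild-type cells, which is 8.95% of the mutant rises and 28.3% of the wild-type rises. Of all 313, 268 had a difference above 0 in wild-type cells, with a wild-type median of 0.14, against 0.00 over all tested genes. Conversely, 91 of the 99 genes that rose in wild-type cells had a difference above 0 in the mutant line, with a mutant median of 0.27. Across the 5825 genes with a mean of at least 10 CPM, the correlation of the 2 responses was 0.33, as a description over genes, which are not independent replicates.

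Myc rose by 0.90 ± 0.10 in the mutant line and 0.57 ± 0.10 in wild-type cells, where it was at 1436 and 644 CPM with upd and 1041 and 406 CPM in control media. Its wild-type libraries overlapped between the media, with replicate 1 the higher in each. ImpL2 rose by 0.83 ± 0.10 and 0.55 ± 0.10 (mutant and wild type), scyl by 0.80 ± 0.09 and 0.57 ± 0.10, cwo by 0.74 ± 0.10 and 0.48 ± 0.09, and chn by 0.76 ± 0.11 and 0.74 ± 0.12. For none of these 5 genes did the 2 responses differ in the interaction test (adjusted p 0.428, 0.562, 0.634, 0.554 and 0.981), which does not show that they are equal. For chrb the mutant response was 1.03 ± 0.12 and the wild-type response 0.48 ± 0.13, which did not pass (edgeR adjusted p 0.0715). Further genes that rose in both lines were the bicarbonate exchanger gene Ae2, the Notch coactivator gene mam, the kinase genes Abl, Pdk1 and S6k, and the repressor gene hry (hairy), with mutant differences of 0.60, 0.52, 0.47, 0.45, 0.30 and 0.38. In the mutant line the call for Abl was lost without either library of replicate 2, and those for Ae2, mam, Pdk1, S6k and hry without either of replicate 1. One gene fell in both, Lsm11, which encodes a protein of the particle that processes histone transcripts (-0.57 in the mutant line, -0.66 in wild-type cells), and its mutant call was lost without any 1 of the 4 mutant libraries.

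The interaction test found 33 genes (0.406% of 8126) whose response differed between the lines, 10 higher (0.123%) and 23 lower (0.283%) in the mutant line. With no replicate block it found 0, and 88 genes had an unadjusted p under 0.05, fewer than this threshold gives when no gene differs. Without the second wild-type upd library 3 were higher and 5 lower, and without the second wild-type control library 3 and 6. Without the second mutant upd library the counts were 308 and 277, and without the second mutant control library 282 and 255. In every fit with the block, 4 of the 33 passed: fray, RpL36A, Vrp1 and mgl. RpL36A was at 183 and 141 CPM with upd and 206 and 144 CPM in control media of wild-type cells, so that its response of 0.71 ± 0.10 in the mutant line differed from -0.10 ± 0.10 in wild-type cells by 0.81 ± 0.14 (edgeR adjusted p 0.00517). The endocytic receptor gene mgl was at 22.9 and 63.9 CPM with upd and 20.2 and 51.2 CPM in control media of the mutant line, against 219 and 261 CPM with upd and 95.8 and 96.4 CPM in control media of wild-type cells. Its mutant groups overlapped and did not pass (0.26 ± 0.11), and the responses differed by -1.06 ± 0.15.

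Sesn moved in opposite directions in the 2 lines. Its response was 0.42 ± 0.11 in the mutant line and -0.54 ± 0.12 in wild-type cells, where it was at 28.6 and 35.2 CPM with upd and 37.8 and 54.8 CPM in control media (difference of the responses 0.96 ± 0.16, edgeR adjusted p 0.00517). The mutant call for Sesn was lost with DESeq2 and without the first upd or first control library (0.40 in the remaining pair). The difference between the lines was lost without the second wild-type upd or control library. Exons of CG46429 and mir-4979 overlap Sesn. PRAS40, a TOR complex component, and TP53INP, an autophagy gene, did not pass in the mutant line (0.20 and 0.03) but fell in wild-type cells (-0.68 and -0.92).

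**Figure D5:**
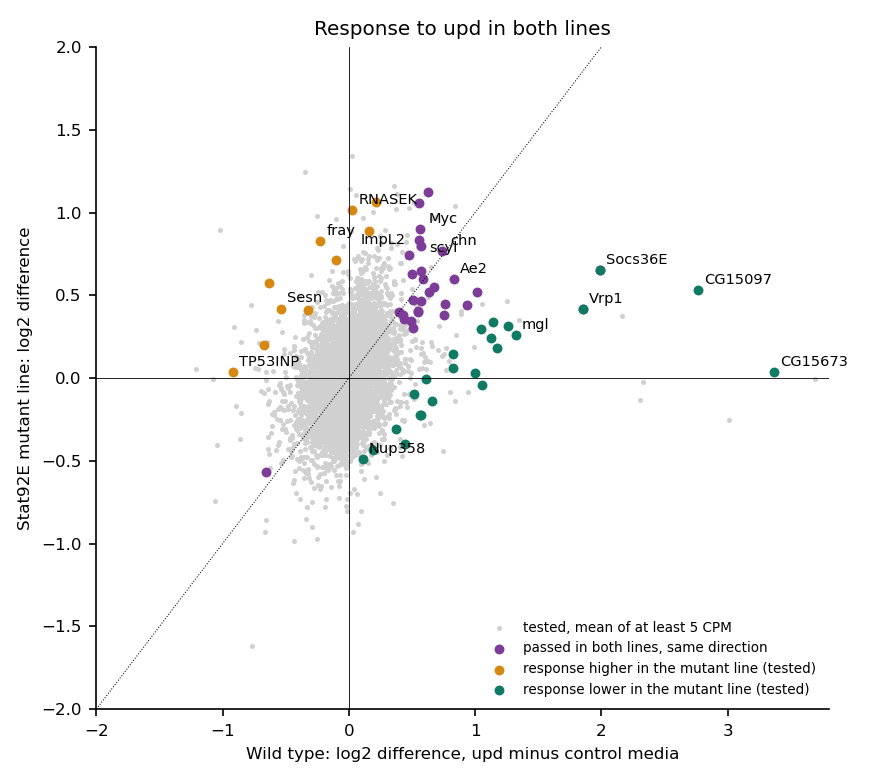
Log2 difference between upd and control media in the mutant line (vertical axis) and in wild-type cells (horizontal axis). Grey points are tested genes with a mean of at least 5 CPM in the mutant line, purple points passed in both lines in the same direction, orange and green points passed the interaction test, and the dotted line marks equal responses. Socs36E and Vrp1 passed in both lines and are drawn in green, at 0.65 and 0.42 in the mutant line against 1.99 and 1.85 in wild-type cells.

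Falls were fewer. CG15093 (2R:18775669-18776978, minus strand), a gene predicted to encode a dehydrogenase, fell most among genes with a mean of at least 5 CPM. It was at 6.85 and 7.36 CPM with upd and 27.7 and 17.1 CPM in control media, without overlap, a difference of -1.62 ± 0.20 (edgeR adjusted p 4.7e-05; -2.0 and -1.21 in the pairs). In wild-type cells it was at 8.96 and 12.1 CPM with upd and 20.1 and 17.3 CPM in control media, and its difference of -0.77 ± 0.20 did not pass (edgeR adjusted p 0.0647). The antisense RNA asRNA:CR43964 overlaps CG15093. DESeq2 did not call the gene in the mutant line.

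Ets96B, a transcription factor of the ETS family, was at 13.5 and 8.26 CPM with upd and 25.1 and 16.1 CPM in control media. It had nearly equal differences in the pairs (-0.89 and -0.96), and DESeq2 did not call it. The stress transcription factor gene crc, the fly ATF4, was at 37.9 and 70.9 CPM with upd and 101 and 82.5 CPM in control media. The groups were apart, but the pairs differed, -1.41 against -0.22, and the call (-0.80 ± 0.17) was lost without the first upd or the first control library. The nuclear pore gene Nup358 was at 184 and 164 CPM with upd and 269 and 222 CPM in control media. Its fall by 0.49 in the mutant line, with -0.55 and -0.43 in the pairs (edgeR adjusted p 0.00283), stood against 0.11 in wild-type cells, where it did not pass, and the responses differed by -0.60 ± 0.13. Ts, the thymidylate synthase gene, was at 294 and 323 CPM with upd and 432 and 427 CPM in control media (-0.48 ± 0.09).

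Of 32 cell cycle genes 4 fell (CycA, CycB3, fzy and Myt1), 1 rose (PCNA) and the median was -0.03. The shares were 12.5% fallen, against 1.9% of all tested genes, and 3.13% risen, against 3.85%. The mitotic cyclin gene CycB3 was at 42.1 and 48.0 CPM with upd and 70.2 and 62.3 CPM in control media (-0.55 ± 0.12), and fzy, the activator of the anaphase-promoting complex, at 177 and 214 CPM with upd and 255 and 234 CPM in control media (-0.33 ± 0.10). Both were apart between the media. PCNA, the sliding clamp of DNA replication, was at 396 and 320.3 CPM with upd and 276 and 272 CPM in control media (0.38 ± 0.09). Without the first upd or the first control library 0 genes of this list passed, without the second upd library 3 rose and 6 fell, and without the second control library 3 rose and 5 fell.

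The largest rises by size were mostly of weakly expressed genes. The 10 largest, among called genes with a mean of at least 5 CPM and no overlap between the media, were CG13751, CG33647, mt:ND6, Zip71B, mt:ND4L, RpL35A, ab, mt:ND3, CG34250 and sog. CG13751, a gene of 377 bases, was at 15.1 and 10.4 CPM with upd and 5.4 and 4.57 CPM in control media. The difference was 1.34 ± 0.22, and DESeq2 did not call it. The transcription factor gene ab was at 20.7 and 11.4 CPM with upd and 7.89 and 6.59 CPM in control media (1.11 ± 0.23), the zinc transporter gene Zip71B at 19.7 and 9.11 CPM with upd and 6.36 and 6.04 CPM in control media (1.14 ± 0.24), and sog, the fly chordin, at 12.7 and 4.66 CPM with upd and 4.59 and 3.23 CPM in control media (1.05 ± 0.26). In each of these 4 the first upd library was the highest. For ab, Zip71B and sog the call was lost without it (0.78, 0.59 and 0.51 in the pair of replicate 2), as it was for CG33647 and CG34250. The 10 largest falls were CG15093, CG18789, FBgn0036660, Arts, Ets96B, Cap-D3, CG42514, escl, crc and FBgn0044510, with log2 differences between -1.62 and -0.80. Apart from CG15093 and Ets96B, their calls were lost without the first upd or the first control library. They include the condensin gene Cap-D3 (-0.90) and the Polycomb group gene escl (-0.86).

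The lists of JNK, hypoxia and glycolysis, heat shock, Toll and Imd, and extracellular matrix genes held 1 or 2 calls each. The JNK phosphatase gene puc, a target of JNK signalling, was at 143 and 157 CPM with upd and 98.8 and 119.5 CPM in control media and rose by 0.46 ± 0.09 (edgeR adjusted p 0.00465), 1 of 17 tested JNK genes (5.88%, against 3.85% of all tested genes). In the hypoxia and glycolysis list sima, the fly HIF, and Pglym78 rose (0.43 and 0.42), 2 of 18 (11.1%), and DESeq2 called neither. One of 17 heat shock genes rose (5.88%), the small chaperone gene Hsp26. It was at 12.2 and 19.3 CPM with upd and 9.42 and 11.8 CPM in control media, and its call was lost without any 1 of the 4 mutant libraries. The Toll and Imd list had 1 rise (pirk) and 1 fall, the kinase gene Tak1 (-0.37), among 21 (4.76% each). The matrix protease gene Mmp2 fell by 0.38, with overlapping groups of 65 and 128 CPM with upd and 90.8 and 156 CPM in control media. It was the 1 fall among 13 extracellular matrix genes (7.69%, against 1.9% of all tested genes). The calls for puc, sima, Pglym78, pirk, Tak1 and Mmp2 were all lost without the first upd or the first control library. Exons of other annotated genes also overlap those of UQCR-6.4 (POSH), lama (CG46456), RpL36A (CCDC53), mgl (BCL7-like), Ets96B (CG13634 and Ude), CG13751 (MrgBP) and crc (CG46314). The Hippo list had 0 calls among 14 genes. Marker lists of crystal cells and lamellocytes (3 tested genes), neurons and glia (8), muscle (7), fat body and epithelium (7) and germline (7) also had 0 calls. Of all tested genes only 3.85% rose and 1.9% fell, so 0 calls in lists this small say little about their genes.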

How the data were processed

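Polyadenylated RNA of 8 libraries was sequenced after Trizol extraction, per the labels' protocols. The submitters' processing notes name Trimmomatic 0.36, STAR 2.5.2b and dm6. The counter and its strand setting are not named in the sources used here. The authors deposited 1 table per library with a read count, an RPKM value and a length per gene; the counts were tested and RPKM was not used. Gene coordinates come from a dm6 annotation matched by gene ID. In the tables, 80 gene IDs had no symbol.

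Counts were filtered with filterByExpr on the 4 groups (minimum count 10) and scaled by TMM, and 8126 of 13932 genes were tested in edgeR 4.0.16 (R 4.3.3, limma 3.58.1) over all 8 libraries. The quasi-likelihood model held genotype, replicate number within genotype as a block, and upd within genotype, with 2 residual degrees of freedom. The threshold was a Benjamini-Hochberg adjusted p of 0.05, two-sided. The interaction term is the mutant response minus the wild-type response. DESeq2 1.42.0 was an alternative. The SE is the log2 difference divided by the root of the F statistic. Differences of single pairs used log2 CPM with a prior count of 2. The procedure was first tested on simulated data.

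The labels give the replicate numbers but not what they mark. Deviations of equally numbered libraries from their group means correlated at 0.75 in the mutant line and 0.80 in wild-type cells (5825 genes with a mean of at least 10 CPM); 2 pairs per line cannot show that the numbers pair the libraries. Depth was 8285533 to 30352948 counts.

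The members, the gene lists and the tests were chosen with earlier results of these data known. The genes named are the 10 largest calls in each direction with a mean of at least 5 CPM and no overlap between the media, Stat92E, and up to 4 members per list by lowest p. Other genes named, such as the remaining calls of a list, the calls held in every fit or in both lines, were chosen after their values were seen. A planned description of promoter motifs was not run, because no promoter sequences were used here.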

Additional observations from a re-analysis of the deposited data

Results flagged for a closer look

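The response to upd differed between the mutant line and wild-type cells by the interaction term for 33 genes, given as the mutant log2 response minus the wild-type log2 response (edgeR's quasi-likelihood test with Benjamini-Hochberg adjustment).

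It was higher in the mutant line for 10 genes. The differences were 1.21 for CG18135, 1.05 for fray, 0.98 for RNASEK, 0.96 for Sesn, 0.95 for TP53INP, 0.88 for PRAS40, 0.85 for mt:ND3, 0.81 for RpL36A, 0.74 for CG15478 and 0.72 for mt:ATPase8. CG18135 was weakly expressed in wild-type cells, at 2.30 and 3.91 CPM with upd and 4.68 and 5.51 CPM in control media. For RNASEK, a short endoribonuclease gene, the responses were 1.01 in the mutant line and 0.03 in wild-type cells.

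It was lower in the mutant line for 23 genes. The largest differences were -3.33 for CG15673, -2.23 for CG15097, -1.44 for Vrp1, -1.34 for Socs36E, -1.09 for CG32700 and -1.06 for mgl. CG15673 was weakly expressed, at 7.39 and 6.12 CPM with upd and 1.14 and 0.427 CPM in control media of wild-type cells. In the mutant line it was at 3.02 and 3.21 CPM with upd and 4.11 and 2.13 CPM in control media. CG15097 was low in the mutant line, at 1.66 and 8.77 CPM with upd and 2.82 and 3.60 CPM in control media. It is an example of uneven pairs, with -0.73 and 1.26 in the mutant pairs of replicates 1 and 2. Differences between -1 and -0.8 were found for Pino (-0.99), CG6204 (-0.98), CG32512 (-0.95), the phosphatase gene Ptpmeg2 (-0.88), the actin crosslinker gene cher (-0.84), the G protein regulator gene loco (-0.81), the Hippo pathway gene ex (-0.80) and the GATA cofactor gene ush (-0.80). For loco the responses were 0.34 in the mutant line and 1.15 in wild-type cells. Smaller ones were found for Swip-1 (-0.79), the amino acid transporter gene path (-0.76), the zinc transporter gene foi (-0.75), coil (-0.69), CD98hc (-0.68), GABPI (-0.63), promL (-0.62), Efa6 (-0.61) and Nup358 (-0.60).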

How the results depend on the processing

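In the mutant line the 313 rises and 154 falls became 0 and 0 with no replicate block, and 157 and 52 with DESeq2 and the block. Leaving out 1 library gave 43 to 782 rises and 14 to 626 falls. With no filter on low counts 297 genes fell. For the difference of the responses (10 higher and 23 lower), the counts were 0 and 0 with no replicate block, 4 higher with DESeq2, 56 and 54 with no filter, 4 and 10 at a mean of at least 5 CPM in the mutant line, and 5 higher with a robust prior. Leaving out 1 library gave 3 to 308 higher and 5 to 277 lower. The cause of these shifts was not tested, apart from the number of libraries and genes that each setting leaves. The numbers pair the libraries only as a hint from the data, so a call lost without the block is not shown to be a weaker effect. Every main call kept its sign in every setting run on it. This was largely fixed in advance, because each setting refits the same pairs or a part of them. Fits with other scalings, no mitochondrial transcripts or the length trend removed kept all 4 counts within 1.5 times of those reported, as did the fit with the mutant libraries alone for the 2 mutant counts, the only ones it gives. The removal of the length trend and the omission of single wild-type libraries were chosen after seeing the data. The 2 pairs per line and the shallow first wild-type libraries limit all tests.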

Other observations

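MtnA, a metallothionein gene, varied more between replicates than between media. It was at 168 and 37.8 CPM with upd and 107 and 27.7 CPM in control media of the mutant line. In both media replicate 1 held several times the level of replicate 2, and the groups overlapped, yet it rose in the paired test (log2 difference 0.56 ± 0.10, edgeR adjusted p 0.00223). The detoxification gene GstD1 was at 31.6 and 34.7 CPM with upd and 21.2 and 26.6 CPM in control media and rose by 0.48 ± 0.13, apart between the media. Together with MtnE these were the 3 rises among 21 tested genes of oxidative stress and metals, with 0 falls (14.3%, against 3.85% of all tested genes). The calls for MtnA, GstD1 and MtnE were lost without the first upd or the first control library, where 1 other gene of the list rose.

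Calls were spread over the chromosomes. Between 2.67% and 4.42% of the tested genes on chromosomes X, 2L, 2R, 3L, 3R and 4 rose in the mutant line, and between 1.33% and 2.29% fell.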
